A study of Homo sapiens with 480 samples.

Results

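Single J-Lat A2 cells treated with PMA were divided by whether reads of their integrated provirus were detected, and the host genes of the 2 classes were compared. J-Lat A2 is 1 clone of Jurkat, a line from a human T cell leukaemia, and it carries an integrated HIV-derived construct with a long terminal repeat (LTR), Tat and a green fluorescent protein reporter. Of the 480 wells of the series, each meant to hold 1 sorted cell, 81 held J-Lat A2 cells with PMA, and 79 of these were kept (410 of 480 in the whole series), meaning that a well had at least 0.1 of the median total of its plate and at least 500 genes with a count. A well was called expressing when HIVmini, the feature that was taken to be the viral construct, had more than 100 CPM (counts scaled to a total of 1e6 per well). It was called silent when HIVmini had no count. This gave 49 expressing wells (15, 17 and 17 on plates P2769, P2770 and P2771) and 24 silent wells (10, 7 and 7). The 6 wells between, at 1.76 to 85.5 CPM, were left out.

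The expressing and the silent wells had the same treatment, 24 h with PMA, a phorbol ester, at 1 ug/mL, and the same clone. Set beside them were 35 wells of J-Lat A2 cells with 0.1% v/v DMSO, the vehicle, on the same plates. Further groups on these plates were J-Lat A2 cells with 1 uM SAHA (vorinostat, a histone deacetylase inhibitor), with 45 expressing and 17 silent wells under the same rule, and 36 wells of parental Jurkat cells with PMA, which carry no provirus. The labels give treatment in flasks before sorting and name no separate culture for a plate. The 3 plates are the replicates (n = 3), so the p-values measure only the spread between plates, which may be technical.

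PMA mimics diacylglycerol and activates protein kinase C, which leads to ERK signalling and to the transcription factors AP-1 and NF-kB. NF-kB binds the HIV LTR, and the viral protein Tat then recruits P-TEFb, the kinase complex of CDK9 and cyclin T1, so that RNA polymerase II elongates. Not every cell of a latently infected clone makes viral RNA when it is stimulated, and the comparison asks what else differed between the cells that did and those that did not.

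HIVmini chose the classes and is therefore only described. The lowest expressing wells had 141.8, 315 and 442 CPM, and the highest well left out had 85.5 CPM. The median of the expressing wells was 9316 CPM, with plate medians of 9316, 7207 and 11646 CPM and a highest well of 33111 CPM. A count of 0 allows up to 3 counts, which came to at most 42.7 CPM in any of the 24 silent wells (median 7.14 CPM), so each silent well was below the threshold of 100 CPM. Of the 79 kept wells, 62.03% were expressing (95% Clopper-Pearson interval 50.4 to 72.7%). Among J-Lat A2 wells with DMSO 4 of 35 had a read, among Jurkat wells with PMA 1 of 36, and none of either group passed 100 CPM. Counts are reads without molecular identifiers, so intervals and limits cover counting error only.

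Depth differed between the classes. The median total was 474990 counts in expressing wells and 420540 in silent wells (550340 with DMSO), and it was higher in expressing wells on 3 of 3 plates. The median number of genes detected was 4412 in expressing wells, 4626 in silent wells and 4684 with DMSO, lower in expressing than in silent wells on 3 of 3 plates, also after each well was thinned to 100000 counts. Over 3 plates an exact sign-flip permutation test cannot go below p = 0.25 (two-sided), and both measures gave that value. Summed over the wells of a class, a plate had 7002818 to 8662601 counts for expressing, 2712262 to 4092563 for silent and 5997580 to 7558797 for DMSO wells. Of 11 J-Lat and Jurkat markers 10 were detected in each class, with CD4 at 0. The markers of other cells were low: 9 of 9 erythroid and platelet markers were at 0 in all classes, the summed B cell markers lay at 50.7 to 129.3 CPM in expressing, 52.5 to 143.4 CPM in silent and 37.97 to 108.9 CPM in DMSO plates, and the B cell gene MS4A1 was at 0. CD79A was the only B cell marker with a count in expressing and DMSO wells, joined by IGHM in silent wells. CD79A had a count in 34 of 49 expressing, 18 of 24 silent and 26 of 35 DMSO wells. Summed myeloid markers lay at 106.5 to 688 CPM in expressing, 68.6 to 96.8 CPM in silent and 75.7 to 136.9 CPM in DMSO plates, with CD14 and CSF1R at 0. The sum was led by S100A9 in expressing wells and by AIF1 in silent and DMSO wells. A single expressing well on P2771 had 8469 CPM of the summed myeloid markers. Summed NK and cytotoxic markers lay at 45.1 to 177.3 CPM in expressing, 53.8 to 160 CPM in silent and 4.04 to 21.8 CPM in DMSO plates, led by GZMA with PMA, with GNLY and GZMB at 0. At 0 in expressing, silent and DMSO wells were 9, 8 and 9 of 10 B cell markers, 8, 10 and 10 of 13 myeloid markers and 6, 8 and 6 of 10 NK markers. The part of these markers in the comparisons was not tested. That of depth was examined only through settings with thinning, deeper wells or a depth term, whose values stand beside the replication, activation and T lineage lists and the calls against DMSO.

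Cells with viral RNA had lower levels of DNA replication genes, such as RRM1 (mean 325 CPM in expressing and 733 CPM in silent wells), but no single host gene passed the main test. CD69, an activation antigen, had a mean of 1332 CPM in expressing and 482 CPM in silent wells, whereas the activation genes as a list had no direction that held in all settings. For that test, counts were summed per class and plate, HIVmini was removed, and the sums were compared with edgeR's quasi-likelihood test with plate as a block and Benjamini-Hochberg adjustment. It called 0 of 10077 genes (0%) at an adjusted p under 0.05, with 544 genes at an unadjusted p under 0.05 and a lowest adjusted p of 0.284. When each well was given equal weight, as the mean of log2(CPM + 10) over the wells of a class and plate, limma called 15 genes. Of all genes tested 0.139% were called lower and 0.00992% higher in expressing wells by limma. DESeq2 on the same sums called 317 genes. Levels of genes per plate, alone or summed by role, are CPM over the library sizes that edgeR scaled (TMM), whereas marker sums and values of single wells are CPM without that scaling. The fold changes below are log2 values from edgeR, expressing over silent, with their standard error, unless limma is named. The median over all tested genes was 0.14 with edgeR and -0.00083 with limma, so edgeR values near 0.14 are at the level of the typical gene.

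Of the 15 genes that limma called, 14 were lower in expressing wells on 3 of 3 plates, and most of them serve DNA replication or chromatin in dividing cells. They were RRM1 and RRM2 (ribonucleotide reductase), MCM3, MCM4 and MCM7 (the replicative helicase), FEN1 (a flap endonuclease that matures Okazaki fragments), RFC4 (the clamp loader), CENPU (a kinetochore protein), LRR1 (a substrate receptor that helps to unload the helicase), the chromatin proteins HMGB1, HMGB2, HMGN2 and H2AZ1, and the tubulin TUBA1B. FDFT1, the squalene synthase of cholesterol synthesis, was higher. Of the 15, 14 had an unadjusted edgeR p under 0.05, and the edgeR adjusted p ran from 0.284 to 0.969, against 0.00016 to 0.0359 with limma. Reads of HMGB1, HMGN2, H2AZ1 and TUBA1B can be shared with near-identical copies in the genome, so their values are uncertain.

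RRM1 (chromosome 11, 4094707 to 4138876, plus strand, GRCh38), the large subunit of the enzyme that makes deoxyribonucleotides, had 267, 361 and 346 CPM in expressing wells, against 649.6, 747 and 802 CPM in silent wells, on P2769, P2770 and P2771 in that order. It had 370.1, 636 and 614 CPM with DMSO. All 3 expressing values lay below all silent values and below all DMSO values. The fold was -1.18 ± 0.17 with edgeR (adjusted p = 0.284) and -2.51 ± 0.29 with limma (adjusted p = 1.75e-04), and over all settings the adjusted p ran from 5.32e-14 to 0.91. RRM1 was detected in 32 of 49 expressing wells and 22 of 24 silent wells, and after thinning in 62.5% of expressing and 91.3% of silent wells. MCM4, a subunit of the helicase that opens the DNA, had 94.7, 144.6 and 141.6 CPM in expressing wells, against 223, 286 and 246 CPM in silent and 321, 397 and 486 CPM in DMSO wells. It was detected in 22 of 49 expressing and 23 of 24 silent wells (43.8% of expressing and 95.7% of silent wells after thinning). Its fold was -1.01 ± 0.20 with edgeR (adjusted p = 0.475) and -2.40 ± 0.30 with limma (adjusted p = 5.03e-04; 3.96e-06 to 1 over all settings).

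FEN1 had 147.9, 281 and 170.5 CPM in expressing wells, against 359.6, 621 and 525 CPM in silent and 382, 456 and 449.5 CPM in DMSO wells, with no overlap between expressing wells and either other class (-1.34 ± 0.20 with edgeR, adjusted p = 0.284). TYMS, the thymidylate synthase that makes dTMP, had 697, 859 and 729.3 CPM in expressing wells, against 1248, 1618 and 1210.3 CPM in silent and 1044, 1554 and 1249 CPM in DMSO wells. It was called by neither edgeR (-0.83 ± 0.14, adjusted p = 0.392) nor limma (adjusted p = 0.0533; 4.83e-12 to 1 over all settings). DTL, a substrate receptor of the CRL4 ubiquitin ligase that acts in S phase, had 78.9, 59.2 and 70.2 CPM in expressing wells, against 181.9, 217 and 191.6 CPM in silent and 166.3, 236 and 314 CPM in DMSO wells (-1.50 ± 0.28, edgeR adjusted p = 0.411). CDC45, which activates the helicase, had 138.2, 169.8 and 166.8 CPM in expressing and 309, 474 and 269 CPM in silent wells (-1.12 ± 0.22, edgeR adjusted p = 0.439). RRM2, the small subunit of ribonucleotide reductase, overlapped between the classes: it had 320, 981 and 269 CPM in expressing wells, against 1080.3, 1599 and 829.5 CPM in silent wells, and the high value of P2770 in expressing wells exceeded the silent value of P2771.

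**Figure D1:**
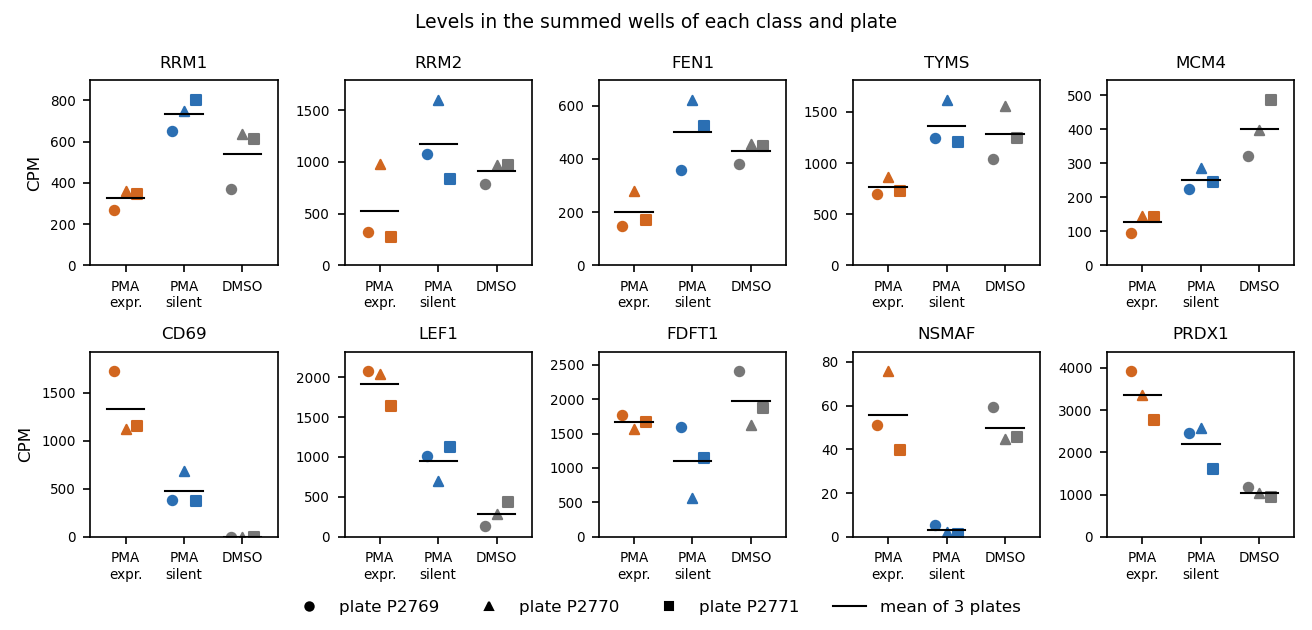
Levels (CPM of host counts, linear axes from 0) of 10 genes in the sums of expressing wells with PMA (orange), silent wells with PMA (blue) and DMSO wells (grey) on 3 plates (marker shapes), with the mean as a line. RRM1, RRM2, FEN1, TYMS and MCM4 were lower in expressing than in silent wells on each plate, whereas CD69, LEF1, FDFT1, NSMAF and PRDX1 were higher.

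Across the 50 tested genes of the S phase and replication list, expressing wells had a median log2 fold of -0.84 against silent wells, beside 0.14 over all genes. On 3 of 3 plates 33 of the 50 were lower and 0 were higher, whereas 10.1% of all genes tested were lower and 16.1% higher on 3 of 3 plates. All 3 expressing values lay below all 3 silent values for 22 of the 50 (3.9% of all genes) and above them for 0 (7.28% of all genes). By role, the 6 subunits MCM2 to MCM7 of the helicase were lower on 3 of 3 plates, with log2 folds of -1.23 to -0.61. Their summed level was 1386, 1584 and 1483 CPM in expressing, 2676, 3045 and 2315 CPM in silent and 2589, 3417 and 2983 CPM in DMSO wells. Of 5 genes of nucleotide supply (RRM1, RRM2, TYMS, TK1 and DUT) 5 were lower on 3 of 3 plates, with a summed level of 1493, 2422 and 1479.5 CPM in expressing, 3387, 4484 and 3136 CPM in silent and 2540.3, 3543 and 3242 CPM in DMSO wells. Of PCNA and the 5 clamp loader subunits 5 of 6 were lower on 3 of 3 plates, of CDC45 and the 4 GINS subunits 4 of 5, and of 8 polymerase and primase subunits 5. For the polymerases and primase the sum was 343, 308 and 399 CPM in expressing wells, against 503.3, 742 and 633 CPM in silent wells.

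With the depth of the wells handled in other ways, the median of the 50 genes was -0.90 after thinning, -0.82 among wells of at least 300000 counts and -0.83 with depth as a covariate. Without each plate in turn it was -0.86, -0.89 and -0.97. Genes of G2 and M phase had a median of -0.16 over 61 genes with edgeR and -0.55 with limma, and the edgeR median was 0.08 without P2770 and 0.05 without P2771. MKI67 averaged 43.8 ± 20 CPM in expressing and 61.2 ± 40.3 CPM in silent wells, and TOP2A 574 ± 229 CPM in expressing and 574 ± 245 CPM in silent wells (SD, n = 3).

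**Figure D2:**
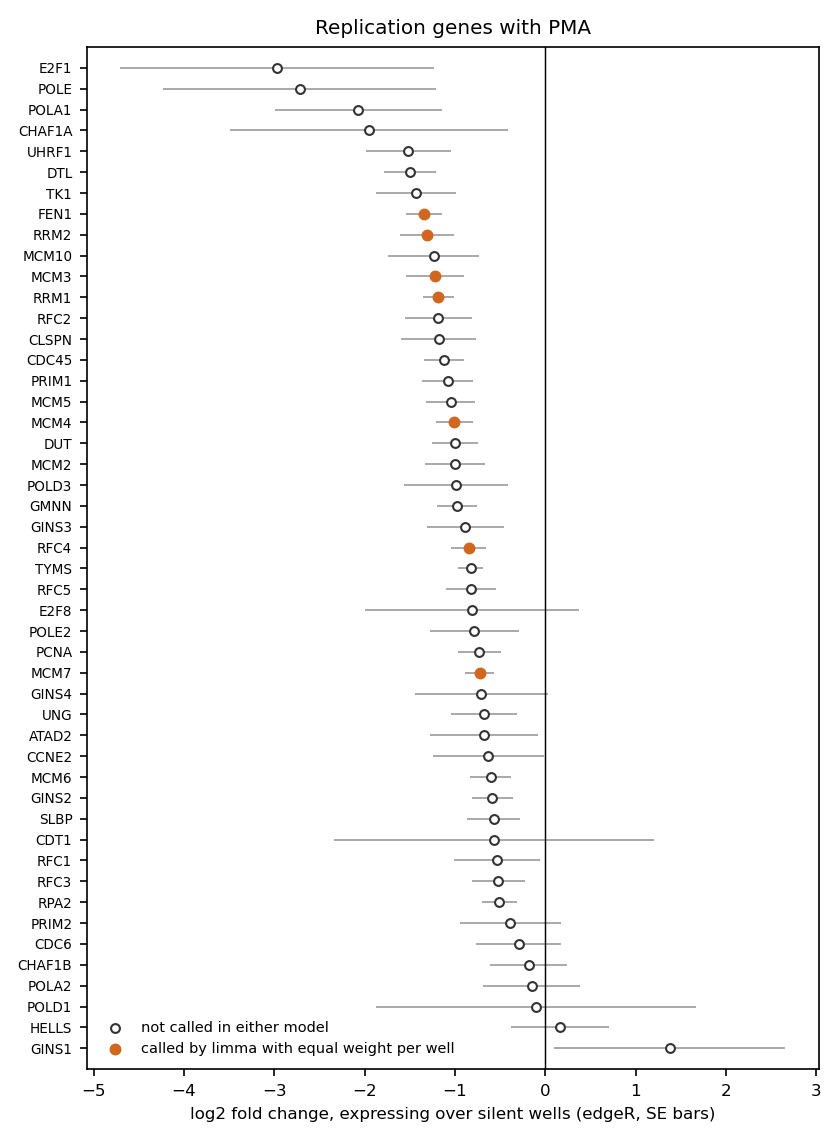
Log2 fold changes with standard errors (edgeR, expressing over silent wells with PMA) for the tested replication genes, leaving out CCNE1, whose error was too wide to draw, and 1 gene not reported here. The 7 genes called by limma are filled, most genes lie below 0, and none was called by edgeR.

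The promoters of 4 of these genes are printed because replication genes are classical targets of the E2F transcription factors. They run from 250 bases before to 50 bases after the gene start in RefSeq (GRCh38.p14), read 5′ to 3′ on the gene's strand. Capitals mark TTTCCCGC, TTTCGCGC, TTTGCCGC or TTTGGCGC, or their reverse complements GCGGGAAA, GCGCGAAA, GCGGCAAA and GCGCCAAA.
RRM1, chr11:4094435-4094734, plus strand: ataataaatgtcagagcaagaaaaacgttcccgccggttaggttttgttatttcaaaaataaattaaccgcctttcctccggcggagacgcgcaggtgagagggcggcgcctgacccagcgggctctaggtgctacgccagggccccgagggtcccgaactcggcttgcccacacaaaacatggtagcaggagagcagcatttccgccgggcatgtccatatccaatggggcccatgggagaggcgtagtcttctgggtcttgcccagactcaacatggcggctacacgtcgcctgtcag
TYMS, chr18:657403-657702, plus strand: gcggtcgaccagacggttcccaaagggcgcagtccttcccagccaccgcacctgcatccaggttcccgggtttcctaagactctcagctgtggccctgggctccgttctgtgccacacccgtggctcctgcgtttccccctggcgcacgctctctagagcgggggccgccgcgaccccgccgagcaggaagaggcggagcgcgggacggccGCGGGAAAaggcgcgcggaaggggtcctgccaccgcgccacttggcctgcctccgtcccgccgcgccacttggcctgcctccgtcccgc
DTL, chr1:212035498-212035797, plus strand: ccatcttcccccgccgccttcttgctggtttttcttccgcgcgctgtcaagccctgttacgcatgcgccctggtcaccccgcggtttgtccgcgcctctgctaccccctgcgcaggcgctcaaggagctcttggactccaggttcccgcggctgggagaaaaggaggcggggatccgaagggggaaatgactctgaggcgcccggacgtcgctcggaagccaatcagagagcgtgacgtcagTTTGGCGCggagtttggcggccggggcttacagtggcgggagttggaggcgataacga
MCM7, chr7:100101348-100101647, minus strand: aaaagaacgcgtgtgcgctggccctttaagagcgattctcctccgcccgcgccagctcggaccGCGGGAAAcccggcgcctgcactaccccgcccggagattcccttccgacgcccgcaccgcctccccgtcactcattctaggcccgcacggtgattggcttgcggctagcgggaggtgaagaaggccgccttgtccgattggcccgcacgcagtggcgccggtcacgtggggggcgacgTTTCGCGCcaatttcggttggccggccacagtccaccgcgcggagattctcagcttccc
MCM7 holds 2 matches, TYMS and DTL 1 each, and RRM1 none in this window. The same window of FEN1 and CDC45, not printed, holds none either. Of the 50 replication genes 41 had a promoter in the table, and 21 of the 41 (51.2%) held a match, beside 1164 of all 35116 promoters (3.31%). A match describes the letters and not a bound site, and the share describes the list and is no test of the difference between the classes.

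Each class was also set beside DMSO. In silent wells the median log2 fold against DMSO over the 50 genes was 0.0057, with 1 gene called higher (PRIM1, a primase subunit) and 0 lower by edgeR. PRIM1 was not called when any 1 of the plates was left out, nor with depth as a covariate. Without P2769, P2770 and P2771 in turn, the silent median was -0.24, -0.07 and 0.17. In expressing wells the median was -0.97, with 8 of the 50 called lower and 0 higher (1.07% of all genes were called lower and 1.61% higher in that comparison). The 8 were MCM4 (-1.67 ± 0.21, adjusted p = 0.00184), MCM7 (-1.03 ± 0.16, adjusted p = 0.00754), FEN1 (-1.16 ± 0.20, adjusted p = 0.0137), TYMS (-0.74 ± 0.14, adjusted p = 0.0168), DTL (-1.75 ± 0.29, adjusted p = 0.0105), GINS2 (helicase complex), SLBP (histone messenger RNA binding) and GMNN (geminin, an inhibitor of origin licensing). Only MCM4 of the 8 was also called without each of the 3 plates in turn, and with depth as a covariate 0 of the 8 were called. With limma the median over the 50 genes was -0.36 in silent and -1.36 in expressing wells. Over all genes these limma medians were -0.041 and -0.038. Limma called 2 of the 50 lower in silent and 26 in expressing wells, and 0 higher in either. Of all 10077 genes it called 266 lower in silent and 401 in expressing wells. The 2 comparisons share their DMSO wells, and the call in one and not the other is no test of the difference between the classes, which is the edgeR comparison above.

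Well by well, the summed level of the replication genes had a median of 3749.5 CPM (range 273 to 21793) in expressing wells, 11769 CPM (range 821 to 21625) in silent wells and 12367 CPM (range 5008 to 20061) in DMSO wells. The ranges of expressing and silent wells overlapped almost whole, and the plate medians were lower in expressing wells on 3 of 3 plates (exact sign-flip permutation p = 0.25, the smallest possible). Of the expressing wells 27 of 49 lay below the lowest DMSO well, which had 5008 CPM (55.1%, Clopper-Pearson 40.2 to 69.3%; 7 of 15, 10 of 17 and 10 of 17 by plate). Of the silent wells 6 of 24 did so (25%, 9.77 to 46.7%; 4 of 10, 1 of 7 and 1 of 7 by plate). These intervals treat wells as independent and do not cover the spread between plates, and the cut rests on 1 DMSO well. Wells low in these genes occurred in both classes, with a larger share among expressing wells on each plate (46.7% against 40% on P2769). In parental Jurkat cells with PMA, which have no provirus, 20 of 36 wells lay below the same level and the median was 4355 CPM. With SAHA 1 of 45 expressing and 0 of 17 silent wells did, with medians of 8479 CPM in expressing and 8122 CPM in silent wells. For the summed G2 and M genes the medians were 2897 CPM in expressing, 8509 CPM in silent and 12043 CPM in DMSO wells, and 23 expressing and 4 silent wells lay below the lowest DMSO well in both sums.

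**Figure D3:**
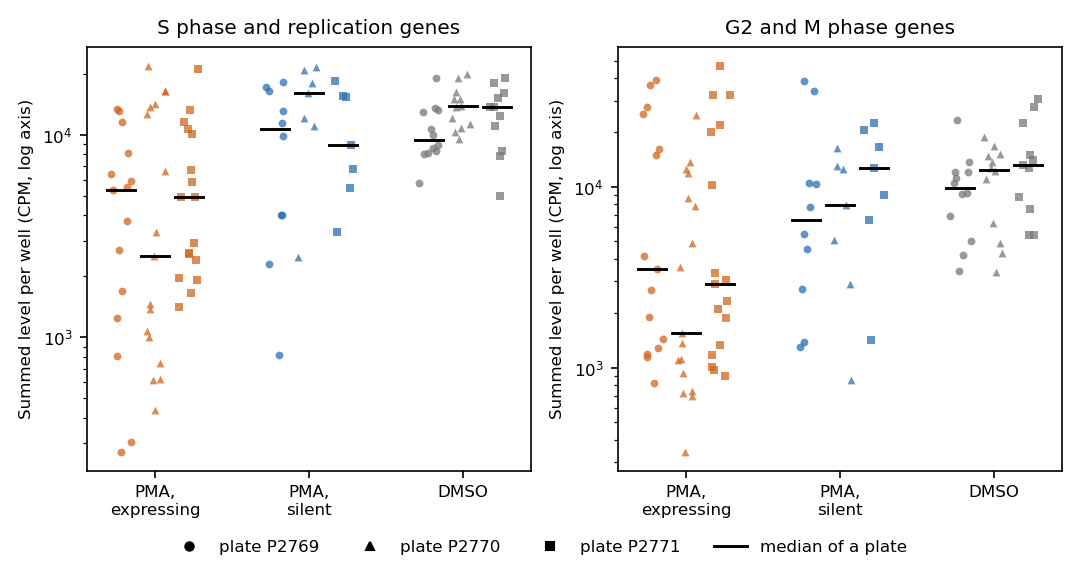
Summed level per well (CPM, log axes) of the replication genes and of the G2 and M phase genes in expressing wells with PMA, silent wells with PMA and DMSO wells, 1 point per well with plate medians as lines. Of the expressing wells 27 of 49 fall below the lowest DMSO well in replication genes, against 6 of 24 silent wells.

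Some genes of T cell activation and identity had higher values in expressing wells, none of which passed edgeR. Of 11 tested activation genes, 3 were higher and 1 lower on 3 of 3 plates (16.1% and 10.1% of all genes). Their median log2 fold was 0.32 with edgeR, 0.08 with limma, 0.24 after thinning and 0.44 among wells of at least 300000 counts. With depth as a covariate it turned to -0.17, beside 0.21 over all genes. CD69 (chromosome 12, 9752486 to 9760901, minus strand), an early activation antigen, had 1724, 1120.5 and 1151 CPM in expressing wells, against 382, 687 and 376 CPM in silent wells. All 3 expressing values lay above all silent values (1.497 ± 0.33, edgeR adjusted p = 0.554; limma 1.77 ± 0.37, adjusted p = 0.0608; 0.0608 to 1 over all settings). With depth as a covariate the fold of CD69 was 0.14, its lowest over all settings. It was detected in 47 of 49 expressing and 19 of 24 silent wells, and 1 silent well held 39.8% of the counts of its class.

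LEF1, a T cell factor of the Wnt pathway that also binds the HIV LTR, had 2072, 2043 and 1634 CPM in expressing wells, against 1014, 700.8 and 1121 CPM in silent and 140.2, 286 and 432 CPM in DMSO wells. The 3 classes did not overlap (1.06 ± 0.32 expressing over silent, edgeR adjusted p = 0.821). TRBC1, a constant region of the T cell receptor beta chain that shares reads with TRBC2, had 10568, 8955 and 10413 CPM in expressing wells, against 8871, 5629 and 6805 CPM in silent wells and 2277, 1138 and 2429.7 CPM with DMSO (0.52 ± 0.17, edgeR adjusted p = 0.863). LAT, the adaptor that links the receptor to its signalling enzymes, had 525.8, 645 and 575 CPM in expressing and 409.9, 357 and 468 CPM in silent wells. Of 46 genes of the T cell receptor and T lineage list, 14 were higher and 3 lower on 3 of 3 plates (16.1% and 10.1% of all genes). Of the 46, 8 had all expressing values above all silent values and 0 below (7.28% and 3.9% of all genes). The median of the 46 was 0.34 with edgeR, 0.30 after thinning, 0.30 among the deeper wells and 0.20 with depth as a covariate, the last beside 0.21 over all genes. Others of the 8 were low, such as VAV1, a guanine nucleotide exchange factor, with 21.4 ± 7.71 CPM in expressing and 6.02 ± 5.84 CPM in silent wells (SD, n = 3).

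EGR1, an immediate early transcription factor, had 89.3, 73.6 and 48.8 CPM in expressing wells, against 39.5, 16.2 and 21.7 CPM in silent wells (1.504 ± 0.76, unadjusted edgeR p = 0.0821), and no count with DMSO. DUSP2, a phosphatase that dampens ERK, had 401, 235 and 110.3 CPM in expressing wells, against 166.8, 69.4 and 36.3 CPM in silent wells, with overlap between P2771 of the expressing and P2769 of the silent wells. EGR1, IER3 and NR4A1 were the 3 of 9 immediate early genes whose expressing values all lay above the silent ones (7.28% of all genes). The summed activation genes per well had a plate median that was higher in expressing wells by 1483, 1235 and 166.5 CPM on P2769, P2770 and P2771 (exact sign-flip permutation p = 0.25, the smallest possible).

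Among the 12 genes with the smallest unadjusted p in the higher direction, 5 were called lower in silent wells than with DMSO (0.794% of all genes were). The 12 were chosen on the same silent wells, so their count against DMSO is a description and not independent of that choice. NSMAF, an adaptor of the tumour necrosis factor receptor, had 51.2, 75.6 and 39.8 CPM in expressing wells, against 5.57, 2.35 and 1.42 CPM in silent wells and 59.1, 44.6 and 45.5 CPM with DMSO. Silent wells lay below both other classes on every plate (4.26 ± 0.77 expressing over silent, edgeR adjusted p = 0.397; -4.12 ± 0.76 silent over DMSO, edgeR adjusted p = 0.0229). The silent counts numbered 33 in all, from 8 of 24 wells. MCCC1 (leucine breakdown), ACAA1 (peroxisomal beta oxidation), AHCY (methionine cycle) and RSRC2 were lower in silent wells than with DMSO by edgeR, with log2 folds of -2.34 ± 0.47, -1.97 ± 0.43, -1.84 ± 0.37 and -1.25 ± 0.25 and adjusted p from 0.0340 to 0.0489. In expressing over silent wells the same genes had 1.82 ± 0.46, 1.77 ± 0.44, 1.36 ± 0.37 and 1.07 ± 0.25, not called by edgeR. None of the 5 calls against DMSO, NSMAF included, held without each plate in turn, and none held with depth as a covariate. PRDX1, a peroxidase, ran the other way against DMSO, with 3918, 3365 and 2778 CPM in expressing wells, against 2447, 2573 and 1599 CPM in silent and 1178, 1031 and 934 CPM in DMSO wells (0.62 ± 0.13 expressing over silent, edgeR adjusted p = 0.542). Among the others of the 12 were CD69, DRAM2 (a lysosomal membrane protein, 2.11 ± 0.49), SERINC1 (1.06 ± 0.25), ALDH1A2 (retinoic acid synthesis, 0.98 ± 0.26) and TTPAL, whose counts came from 15 of 49 expressing wells and 1 of 24 silent wells.

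In the lower direction the 12 also held NOP2, an RNA methyltransferase of ribosome assembly, with 76.6, 72.1 and 61.7 CPM in expressing wells, against 171.3, 169.6 and 173.9 CPM in silent wells (-1.30 ± 0.27, edgeR adjusted p = 0.503). AARS1, the alanyl-tRNA synthetase, averaged 55.8 ± 19.6 CPM in expressing and 193.7 ± 71.6 CPM in silent wells (SD, n = 3; -1.79 ± 0.35). CHRNA3, a nicotinic receptor subunit, had 0.457, 0 and 0.265 CPM in expressing wells, against 60.7, 45.3 and 15.6 CPM in silent and 34.5, 20.6 and 31.5 CPM in DMSO wells, with a count in 3 of 49 expressing, 8 of 24 silent and 11 of 35 DMSO wells. HMGB1, an abundant chromatin protein, had 1296, 1029 and 899 CPM in expressing wells, against 2046, 1749.6 and 1542 CPM in silent and 2877, 2809 and 2909.9 CPM in DMSO wells, so that the 3 classes were ordered on every plate. FDFT1, the 1 gene that limma called higher in expressing wells, had 1776, 1572 and 1671 CPM in expressing wells, against 1597, 562 and 1141 CPM in silent wells (0.71 ± 0.22 with edgeR, 1.06 ± 0.19 with limma, limma adjusted p = 0.0286; 0.0286 to 1 over all settings).

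The silent wells also differed from DMSO wells, in genes of activation and T cell identity. Against DMSO, edgeR called 206 of 10077 genes in silent wells (1.25% higher and 0.794% lower) and 270 in expressing wells (1.61% higher and 1.07% lower). CD69 had 29815 counts in expressing and 4835 in silent wells, against 2 over all DMSO wells, a ratio of 12900 for expressing over DMSO wells (counting interval 3571 to 106500) and of 4780 for silent over DMSO wells (1322 to 39480). IL2RA, an interleukin-2 receptor chain (CD25), had 138.8, 22.2 and 154.5 CPM in expressing and 167.3, 84.7 and 66.1 CPM in silent wells and no count with DMSO. With a floor of 3 counts over the DMSO wells, IL2RA was at least 655-fold higher in expressing and at least 728.2-fold higher in silent wells. On the same scale HDC, the histidine decarboxylase, was at least 1772-fold higher in expressing and at least 2682-fold higher in silent wells, and EGR1 at least 461-fold higher in expressing and at least 174.7-fold higher in silent wells. These 4 genes were called by edgeR in both classes, EGR1 in silent wells not without P2769.

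LAT rose to 409.9, 357 and 468 CPM in silent wells, against 16.6, 29.7 and 33.6 CPM with DMSO (3.99 ± 0.26, edgeR adjusted p = 5.91e-05). IER2, an immediate early gene, rose to 689.7, 604 and 763 CPM in silent wells, against 59.4, 44.6 and 30.2 CPM with DMSO (3.95 ± 0.29, edgeR adjusted p = 1.28e-04), and had 562, 798 and 730.1 CPM in expressing wells, which overlapped the silent values. TRAC, the constant region of the T cell receptor alpha chain, had 400.5, 432 and 341 CPM in expressing wells and 236, 704.9 and 261 CPM in silent wells, against 35.7, 1.51 and 6.27 CPM with DMSO (5.12 ± 0.94 silent over DMSO, edgeR adjusted p = 0.0226). Of the 46 T cell receptor and T lineage genes 12 rose and 0 fell in silent wells (1.25% and 0.794% of all genes). Among the 12 were TRBC1 (1.90 ± 0.18), TRBV12-3 (2.02 ± 0.27, the beta chain segment of Jurkat), CD3D (1.11 ± 0.13) and LCP2 (3.52 ± 0.47, the adaptor SLP-76), with edgeR adjusted p of 5.89e-04, 0.0042, 0.00174 and 0.00402. TRBV12-3 and LCP2 were not called without P2769, nor TRAC without P2771. In expressing wells 13 of the 46 rose and 0 fell (1.61% and 1.07% of all genes). DGKA, which removes diacylglycerol, the ligand that PMA mimics, rose by 2.65 ± 0.25 (edgeR adjusted p = 5.89e-04), ITGAE, the integrin CD103, by 1.68 ± 0.22 (adjusted p = 0.0038) and GZMA, granzyme A, by 5.47 ± 0.96 (adjusted p = 0.0188). GZMA, also the leading NK and cytotoxic marker, was called neither without P2770 nor without P2771. ITGAE was called neither without P2769 nor without P2771. Of 16 genes listed because they rose with PMA in an earlier look at these data, 11 were called higher in silent and 13 in expressing wells; that list was chosen on these cells and is no independent evidence.

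**Figure D4:**
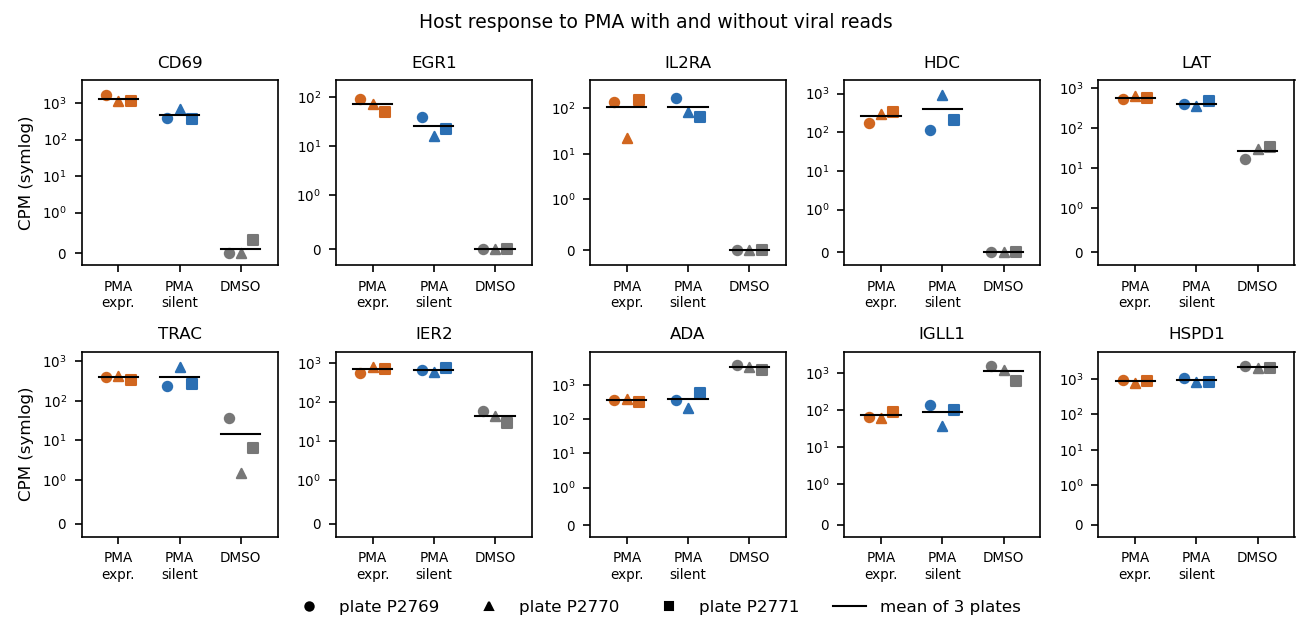
Levels (CPM, symlog axes, linear below 1) in the sums of expressing wells with PMA (orange), silent wells with PMA (blue) and DMSO wells (grey) on 3 plates (marker shapes), with the mean as a line. CD69, EGR1, IL2RA, HDC, LAT, TRAC and IER2 lie higher in both PMA classes than with DMSO on each plate, and ADA, IGLL1 and HSPD1 lie lower.

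Other genes fell with PMA. ADA, adenosine deaminase, fell to 369, 208 and 596 CPM in silent wells, against 3887, 3512 and 2758 CPM with DMSO (-3.17 ± 0.33, edgeR adjusted p = 0.00115), and had 379.7, 389 and 328 CPM in expressing wells. IGLL1, a surrogate light chain gene of lymphoid precursors, had 67, 61.8 and 90 CPM in expressing and 136.8, 36.5 and 103.1 CPM in silent wells, against 1586, 1228 and 640.4 CPM with DMSO (-3.74 ± 0.44 silent over DMSO, edgeR adjusted p = 0.00211). With MZB1 (-3.99 ± 0.69, adjusted p = 0.0171) these were 3 of the 6 genes of the V(D)J recombination and precursor list, beside 0.794% of all genes called lower in silent wells. MZB1 was called neither without P2769 nor without P2771. DNTT, the terminal transferase, had no count in expressing or silent wells and 39.8, 37.2 and 75.1 CPM with DMSO (edgeR adjusted p = 0.0831 for silent wells). Some genes of protein folding and of the nucleolus fell in silent wells: HSPD1, the mitochondrial chaperonin, by 1.23 ± 0.13, HSP90AB1 by 1.03 ± 0.12, nucleolin NCL by 1.06 ± 0.17 and NPM1 by 0.91 ± 0.14 on the log2 scale, with edgeR adjusted p from 0.00115 to 0.0108. HSP90AB1 was not called without P2770, and NCL neither without P2770 nor without P2771. NPM1 was not called when any 1 of the plates was left out. With depth as a covariate none of these genes was called. Of the 33 ribosome biogenesis genes 7 fell in expressing and 4 in silent wells, where 1.07% of all genes fell in expressing and 0.794% in silent wells. Of the 78 cytoplasmic ribosomal protein genes 4 fell in expressing and 8 in silent wells, beside the same shares of all genes. MYC, a driver of growth genes, had 14, 5.13 and 24.6 CPM in expressing and 0, 25.6 and 0 CPM in silent wells, against 350.1, 318 and 266 CPM with DMSO (edgeR adjusted p = 0.0884 for silent wells).

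These calls against DMSO depended on the plates and on the depth term. Of 39 genes whose call in silent wells was traced, 14 were also called without each plate in turn, among them CD69, IL2RA, HDC, LAT, IER2, TRBC1, CD3D, DGKA, ADA, IGLL1 and HSPD1. With the depth of the wells as a covariate, edgeR called 6 genes in silent wells in place of 206, CD69, HDC and TRAC among them. Mean host counts per well on P2769, P2770 and P2771 were 629900, 536570 and 545240 with DMSO. They were 409260, 472640 and 387470 in silent and 466850, 509560 and 437580 in expressing wells. The depth term thus overlaps with the classes on each plate, and the loss of calls under it cannot be assigned to depth or to treatment. The genes called in both classes made up 61.5% of the calls in expressing wells and 80.6% of those in silent wells. The comparisons share their DMSO wells.

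Of the host factors with known roles in HIV transcription none was called between the classes by edgeR. CCNT1, the cyclin T1 of P-TEFb, had 29.1, 76.7 and 49.8 CPM in expressing wells, against 124.6, 78.2 and 147.6 CPM in silent wells and an average of 48.6 ± 26.4 CPM with DMSO (SD over 3 plates). Its fold was -1.32 ± 0.52 with an unadjusted edgeR p of 0.0303. Its partner CDK9 averaged 68.5 ± 32.2 CPM in expressing and 36.8 ± 21.5 CPM in silent wells, and HEXIM1, an inhibitor of P-TEFb, 2.07 ± 2.11 CPM in expressing and 2.86 ± 3.99 CPM in silent wells. The NF-kB subunit RELA averaged 31.6 ± 20 CPM in expressing and 30.1 ± 6.72 CPM in silent wells, and NFKB1 20.7 ± 14.1 CPM in expressing and 6.29 ± 10.4 CPM in silent wells (3.28 ± 2.01). The NF-kB inhibitor NFKBIA averaged 74.8 ± 41.3 CPM in expressing and 35.8 ± 5.64 CPM in silent wells (0.98 ± 0.64). Of 33 genes of P-TEFb, 7SK and elongation 4 had all expressing values above all silent values and 1, CCNT1, below (7.28% and 3.9% of all genes).

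Of 43 chromatin repressors of the provirus 6 lay above and 3 below in the same sense, again beside 7.28% and 3.9% of all genes. The median log2 fold over the 43 was -0.098 with edgeR and 0.021 with limma. Values are given next for the 3 below and not for the 6 above. The 3 were DNMT1, the maintenance DNA methyltransferase, with 95.1 ± 26.8 CPM in expressing and 229.9 ± 68.9 CPM in silent wells, EZH2 with 177.1 ± 23.8 CPM in expressing and 265 ± 93.9 CPM in silent wells, and its relative EZH1 (methyltransferases of histone H3). HDAC2, a histone deacetylase, averaged 542 ± 38.9 CPM in expressing and 602 ± 132.2 CPM in silent wells, and CBX3, a heterochromatin protein, 436 ± 47.3 CPM in expressing and 453 ± 31.6 CPM in silent wells (SD, n = 3). Of 25 HIV restriction factors 5 lay above and 0 below (7.28% and 3.9% of all genes), led by SERINC3, a membrane protein that lowers virion infectivity, with 373 ± 89.2 CPM in expressing and 192.2 ± 118.9 CPM in silent wells (1.10 ± 0.57). Of 26 interferon-stimulated genes 4 lay above and 0 below (7.28% and 3.9% of all genes), among them PSMB8, an immunoproteasome subunit, with 198.8, 184.7 and 167.9 CPM in expressing wells, against 161.8, 85 and 65.1 CPM in silent and 284, 224 and 176.7 CPM in DMSO wells (0.92 ± 0.27). Of 20 genes of amino acid supply and ATF4 stress 7 were lower on 3 of 3 plates and 0 higher (10.1% and 16.1% of all genes), with PSAT1, of serine synthesis, at 590, 563 and 781 CPM in expressing wells, against 736, 763 and 1121 CPM in silent and 1657, 1641 and 1686 CPM in DMSO wells. PSAT1 fell in silent wells against DMSO (-0.96 ± 0.16, edgeR adjusted p = 0.0123), but was called neither without P2769 nor without P2770.

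Among the 49 expressing wells the amount of viral RNA showed almost no rank relation to the summed gene lists or the well total, given here as a description. With the genes detected the relation was weak and negative. The rank correlation of HIVmini was 0.0108 with the summed replication genes, -0.0072 with the G2 and M genes, 0.0761 with the activation genes, -0.0715 with the well total and -0.227 with the genes detected. HIVmini is a share of the same library as these measures.

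**Figure D5:**
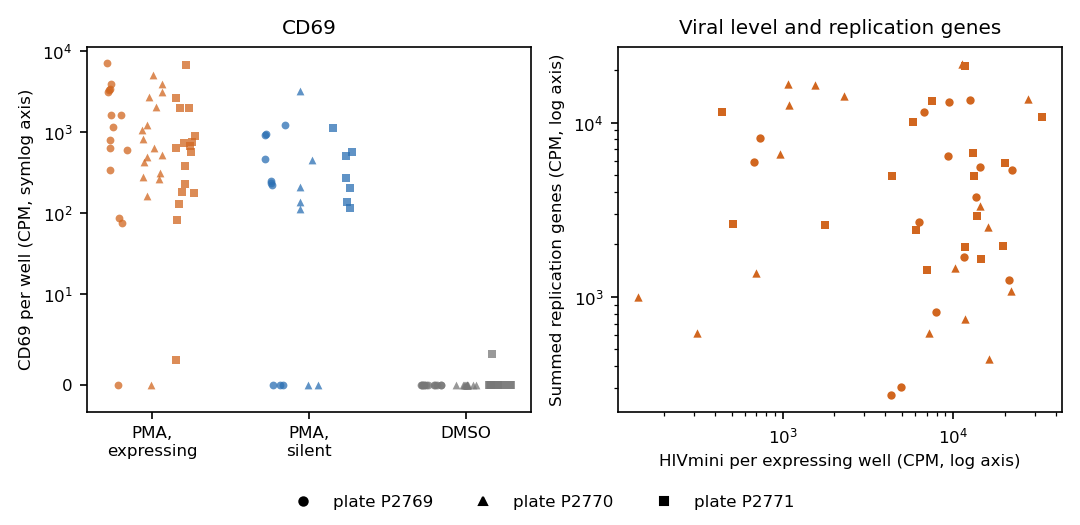
Left, CD69 per well (CPM, symlog axis, linear below 10) in expressing wells with PMA, silent wells with PMA and DMSO wells; right, summed replication genes against HIVmini (CPM, log axes) in the 49 expressing wells, with plates as marker shapes. CD69 was detected in 47 of 49 expressing, 19 of 24 silent and 1 of 35 DMSO wells, and the rank correlation in the right panel is 0.0108.

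The same split was made among SAHA wells. The replication genes had a median log2 fold of 0.16 in SAHA-expressing over SAHA-silent wells, beside 0.19 over all genes, against -0.84 with PMA. A test of the difference between the PMA and the SAHA contrast, in 1 edgeR model over 15 sums, called 0 of the replication genes and 2 of 10950 genes (0.0183%). The 2 were FXYD2, a regulator of the sodium pump, and PECAM1, an adhesion molecule, each with an adjusted p of 0.0499. FXYD2 had 458, 269.9 and 322 CPM in expressing and 298, 191.7 and 239.6 CPM in silent wells with PMA, and 14, 3.54 and 5.21 CPM in expressing and no count in silent wells with SAHA. PECAM1 had 23.1, 49.7 and 19.6 CPM in expressing and 59.6, 149.01 and 58.3 CPM in silent wells with PMA, and 28.8, 25.4 and 4.97 CPM in expressing and no count in silent wells with SAHA. Both rest on silent SAHA wells at 0, and neither was called without any 1 of the plates.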

How the data were processed

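Full-length cDNA of single sorted wells was sequenced after template switching and Nextera XT fragmentation, per the labels' protocols. The authors deposited expected counts for each gene in each well, unscaled. Salmon 1.5.1, alevin and the build GRCh38.p13 are named, without their roles, in the submitters' processing notes. No source used here gives the treatment of duplicates or low-quality reads. Of the values above 0, 12.8% were not whole. Symbols were found for 20271 of 20302 features, and coordinates are from GENCODE 29 (GRCh38).

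Expected counts were summed per class and plate and rounded, without HIVmini. Totals of the kept wells with PMA ran from 64810 to 711749 counts. The main fit in R 4.3.3 with edgeR 4.0.16 used 9 sums (expressing, silent and DMSO on 3 plates), TMM, filterByExpr, class and plate as terms (4 residual degrees of freedom) and quasi-likelihood F tests, two-sided, adjusted by Benjamini-Hochberg over 10077 genes. The SAHA difference used 15 sums (10950 genes). Gene levels are CPM of host counts per sum over TMM-scaled library sizes; marker sums and levels of single wells are unscaled CPM. No doublet caller was run. Some genes are not reported here. Alternatives were DESeq2 1.42.0, its size factors, limma 3.58.1 with equal weight per well, no filter, thinning, depth as a covariate, no plate term, and leaving out each plate; for expressing against silent wells also other HIVmini limits (1000 CPM, or the wells between added to either class), deeper wells and the 6 PMA sums alone. Exact tests used scipy 1.17.1. The fits were tested on simulated data. Plate is a block by design; deviations of the sums from their class means correlated at 0.0546, 0.0225 and 0.0143 within P2769, P2770 and P2771.

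The members and lists were chosen with earlier results of these data known. Genes named are the 12 with the strongest evidence in each direction between the classes (mean of at least 20 CPM, same direction on 3 of 3 plates, detected in at least 10% of wells of the higher class, by unadjusted p where not called), up to 4 called or the 2 highest members of each list, a fixed set of activation and HIV factors, and the 5 with the largest change each way against DMSO. Genes called by limma, the grouping of replication genes by role, and the members described for not overlapping between classes were chosen after their values were seen.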

Additional observations from a re-analysis of the deposited data

Results flagged for a closer look

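Of 18 groups of 4 to 10 wells, formed by measure, class and plate, 4 held a well that stood apart from the rest of its group; chance flags about 1 in 20. All 4 were silent wells with PMA. Expressing wells with PMA (15, 17 and 17 by plate) and DMSO wells (12, 12 and 11) formed larger groups, which this scan could not flag. On P2770 the lowest silent well had a total of 70320 counts, and on P2771 the highest silent well had 610900 counts. The summed activation genes of the highest silent well came to 4500 CPM on P2769 and 5546 CPM on P2770. The part of these wells in the comparisons was not tested one by one; each plate was left out in turn.

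The difference between the PMA and the SAHA contrast, expressing over silent, was called by edgeR for FXYD2 (log2 difference -7.77 ± 1.07, adjusted p = 0.0499) and PECAM1 (-11.28 ± 1.52, adjusted p = 0.0499). In both genes the silent SAHA wells had no count, so the fitted size depends on the prior count and is no bound.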

How the results depend on the processing

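Between expressing and silent wells with PMA, edgeR called 0% of the genes tested under each edgeR setting, without the replicate block and without each plate in turn (0%) included, whereas limma with equal weight per well called 0.149% (15 genes) and DESeq2 3.15% (317). All 45 genes with a printed fold between these classes kept their direction under all alternatives. For silent wells against DMSO (2.04%, 206 genes), DESeq2 called 12.4%, limma 4.36%, and edgeR 0.0595% (6 genes) with depth as a covariate, 1.38% without the replicate block and 0.56 to 0.964% without a plate. For expressing wells against DMSO (2.68%, 270 genes), DESeq2 called 11.9%, limma 6.17%, and edgeR 0.288% with depth as a covariate, 1.83% without the replicate block and 0.983 to 1.15% without a plate. The 30 genes with a printed fold of silent wells over DMSO kept their direction, and 29 were no longer called with depth as a covariate. The SAHA difference (2 genes) came to 0.00913% (1 gene) without the replicate block, and to 0% after thinning and without each plate. Shares are of the genes tested under each setting. The cause was not tested, except that fewer sums remain without a plate. Depth limits genes of low level: a count of 0 in a sum of PMA wells allows 0.346 to 0.428 CPM in expressing and 0.733 to 1.11 CPM in silent wells.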
